A study of Mus musculus with 4 samples.

Results

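The surfactant and alveolar type 2 genes described here were 10 genes picked by symbol, Sftpa1, Sftpb, Sftpc, Sftpd, Abca3, Lamp3, Slc34a2, Napsa, Lpcat1 and Cebpa, out of 22556 genes in a table of whole mouse lungs at E16.5. The rule used symbols and no measured value. All 10 were present and all 10 were among the 13770 genes tested. The study asked how the kinase STK11 acts in the airway epithelium, and RNA sequencing compared Shh-Stk11 lungs (Shh-Cre; Stk11F/F) with Control lungs (Shh-Cre; Stk11F/+), with 2 libraries of each. All embryos, Controls included, therefore carried the Shh-Cre driver and at least 1 floxed Stk11 allele, and Controls kept 1 intact copy. Shh-Cre acts in endodermal progenitors, from which the surfactant-making cells descend, and not in the cells of mesenchyme, vessels or blood. The labels gave the strain as C57BL/6 and the methods of the study gave mixed backgrounds. Neither gave sex or litter for these libraries, although the study compared stained lungs of the same genotypes between littermates, and the methods called the replicates independent biological samples.

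Pulmonary surfactant is a film of phospholipid and a few proteins that lowers surface tension in the alveoli, and alveolar type 2 cells make it, store it in lamellar bodies and release it by exocytosis. The surfactant genes come on as distal epithelium matures before birth, and their expression is a standard sign of that maturation. The lung-enriched factor NKX2-1, together with FOXA and C/EBP factors, is known to drive several of them.

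Of the 10 genes, 7 matched the table of RefSeq promoters (GRCm38.p6). The stretch of 250 bases before the transcription start was searched on both strands for CTCAAG, a core letter string of NKX2-1 sites, TGTTTAC, a FOXA string, and the palindromes TTGCGCAA (C/EBP) and TGACGTCA (CREB). None of the matches overlapped another. The 4 promoters that held a match are shown, so that the matched letters can be seen in place. Capitals mark the matched letters. Sftpb lies at chr6:72304360-72304609 on the plus strand, Sftpa1 at chr14:41131538-41131787 on the plus strand, Lamp3 at chr16:19706366-19706615 on the minus strand and Slc34a2 at chr5:53049103-53049352 on the plus strand.
Sftpb: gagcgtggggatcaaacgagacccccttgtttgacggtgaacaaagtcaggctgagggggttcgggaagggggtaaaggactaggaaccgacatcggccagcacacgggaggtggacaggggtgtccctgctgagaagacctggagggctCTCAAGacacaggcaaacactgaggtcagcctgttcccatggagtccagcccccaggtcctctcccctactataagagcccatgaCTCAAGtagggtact
Sftpa1: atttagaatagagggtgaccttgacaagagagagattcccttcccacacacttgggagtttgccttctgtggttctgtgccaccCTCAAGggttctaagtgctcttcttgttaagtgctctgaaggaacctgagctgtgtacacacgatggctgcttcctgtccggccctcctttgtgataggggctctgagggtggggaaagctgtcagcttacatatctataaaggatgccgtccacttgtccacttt
Lamp3: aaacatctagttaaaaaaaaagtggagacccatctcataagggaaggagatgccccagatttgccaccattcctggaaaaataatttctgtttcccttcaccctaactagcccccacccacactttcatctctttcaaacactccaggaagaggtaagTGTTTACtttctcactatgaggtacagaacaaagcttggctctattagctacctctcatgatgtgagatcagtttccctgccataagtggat
Slc34a2: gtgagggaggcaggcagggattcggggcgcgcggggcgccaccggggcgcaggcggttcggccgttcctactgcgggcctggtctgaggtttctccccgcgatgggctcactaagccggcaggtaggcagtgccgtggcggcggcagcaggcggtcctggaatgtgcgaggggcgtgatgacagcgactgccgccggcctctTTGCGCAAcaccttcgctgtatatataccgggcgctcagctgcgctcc

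Sftpb held CTCAAG at 100 and at 15 bases before the start, and Sftpa1 held it at 166 bases. These letters stood in 13.3% of all 32851 promoters of the same length. Lamp3 held TGTTTAC at 92 bases, as did 3.17% of promoters. Slc34a2 held TTGCGCAA at 48 bases, as did 0.164% of promoters, and TGACGTCA stood in 0 of the 7 and in 1.55% of all promoters. Abca3, Lpcat1 and Cebpa held none of the 4 strings in this window. A letter match describes the sequence and was not a measurement of binding.

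The libraries held an estimated 30.85 to 38.0 M reads, recovered from the steps between the lowest FPKM values (FPKM corrects the reads of a gene for transcript length and library size). Stk11 itself was at 44.0 and 45.5 FPKM in the Control libraries and at 29.5 and 26.0 FPKM in the Shh-Stk11 libraries, a log2 difference of -0.69 (SE 0.125) that just passed the test of limma (adjusted p = 0.0499). Its direction matched the labels of all 4 libraries, but the call was lost when any 1 library was left out (adjusted p of 0.113 to 0.183). Xist, which silences the X chromosome in females, was at 65.1, 90.7 and 169 FPKM in Control 1, Control 2 and Shh-Stk11 1 and at 0.239 FPKM in Shh-Stk11 2, whereas the Y-linked Ddx3y reached 23.5 FPKM in Shh-Stk11 2 and no more than 0.0285 FPKM elsewhere. Shh-Stk11 2 thus had the pattern of a male lung, and its values are given apart where they decide a result.

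None of the 10 genes passed the test. In the comparison across all genes (limma on log2(FPKM + 0.1), two-sided, adjusted p under 0.05), 0 of the 10 were called in either direction, whereas 2.27% of all tested genes were called, 0.98% as higher and 1.29% as lower in Shh-Stk11 lungs. The whole-table split of 135 higher and 178 lower became 61 and 464 when libraries were scaled to 20 general epithelial genes, with 0 of the 10 called there too. At an unadjusted p under 0.05, 2 of the 10 passed, Sftpd and Slc34a2, against 15.2% of all tested genes. The values of the 2 genotypes did not overlap for 4 of the 10, with Sftpb and Sftpd higher and Sftpc and Slc34a2 lower, and this held for 46.8% of all tested genes. The median log2 difference of the 10 was -0.03, with 5 higher and 5 lower, beside -0.05 over all tested genes. In these whole lungs, fewer cells of a type and less RNA per cell cannot be told apart.

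**Figure D1:**
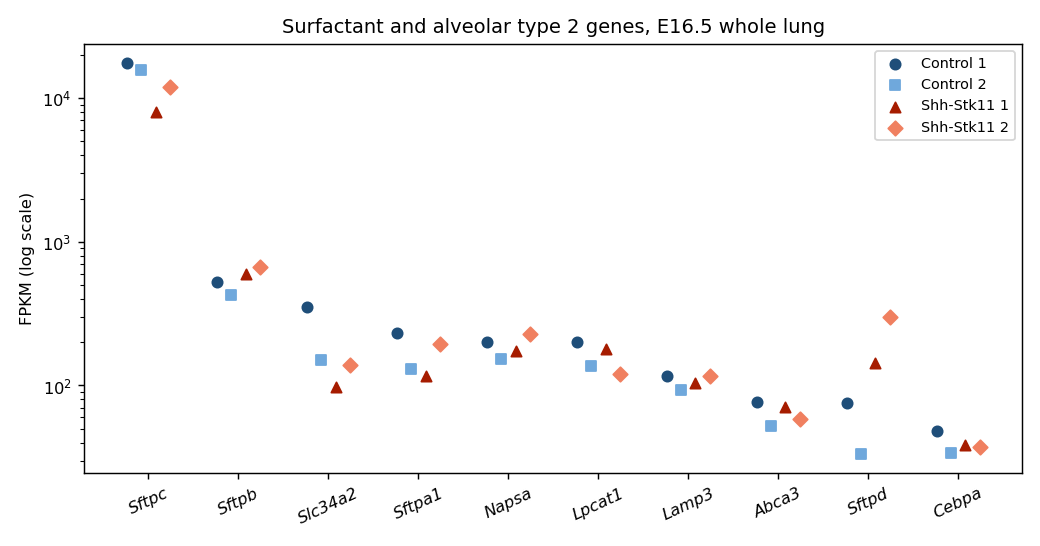
FPKM of the 10 genes in each of the 4 libraries, on a log axis, with 1 point per library. Sftpc stands above all others in every library, Sftpd is higher in both Shh-Stk11 libraries, and the points of 6 genes overlap between genotypes.

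The levels of the 10 genes spanned a wide range. Sftpc had the highest FPKM of all genes in 3 libraries and the second rank in Shh-Stk11 1, behind the microRNA gene Mir703. It made up 3.01% and 2.51% of all FPKM in the Control libraries and 1.55% and 2.12% in the Shh-Stk11 libraries. Within the 10 genes it held 90.5% and 92.9% of the summed FPKM in Controls and 84.1% and 86.6% in Shh-Stk11 lungs. Sftpb followed at 426.4 to 665.9 FPKM and Cebpa had the lowest mean in both genotypes. Lamp3, at 93.23 to 116.7 FPKM, lay below every library of Napsa, Lpcat1 and Sftpa1. The ranges of Slc34a2, Sftpa1, Napsa and Lpcat1 overlapped one another. The median tested gene stood at 10.9 to 11.0 FPKM, so that all 10 lay well above it. Counting error was small at this depth, with at least an estimated 1700 reads per library for Sftpd, the gene with the fewest, which gives a counting SD of 2.42%.

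The pair of collectins among the surfactant proteins, SP-A and SP-D, are soluble lectins that bind microbes. Sftpd encodes SP-D and was at 76.05 and 33.56 FPKM in Controls and at 143.0 and 301.3 FPKM in Shh-Stk11 lungs. Both Shh-Stk11 values lay above both Control values, and the values within each genotype were also far apart. The mean went from 54.8 ± 30.0 to 222 ± 112 FPKM (SD, n = 2), a log2 difference of 2.04 (SE 0.459, 95% interval 0.93 to 3.14), or 4.1-fold with an interval of 1.91 to 8.81. The adjusted p by limma was 0.0853, and the unadjusted p was 0.00365. This was the largest difference among the 10, and 105 of all tested genes, Sftpd among them, differed by at least as much in either direction, of which 41 passed the threshold.

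Leaving out 1 library at a time moved the estimate for Sftpd but kept its sign. It was 1.45 on the log2 scale without Control 2 (adjusted p = 0.292) and 1.5 without the male library Shh-Stk11 2 (adjusted p = 0.187). Conversely it was 2.63 without Control 1 (adjusted p = 0.142) and 2.57 without Shh-Stk11 1 (adjusted p = 0.0519). Over 16 other ways of processing, these among them, the adjusted p ranged from 0.0519 to 0.479.

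Sftpa1, which encodes SP-A, behaved otherwise. Its values were 231.6 and 130.7 FPKM in Controls and 117.3 and 193.2 FPKM in Shh-Stk11 lungs, and the groups overlapped. The log2 difference was -0.21 (SE 0.33, interval -1.0 to 0.58, adjusted p = 0.814). The sign turned with 1 library, to 0.2 without Control 1 and to 0.15 without Shh-Stk11 1. Within each library, Sftpd was at 0.328 and 0.257 times the level of Sftpa1 in Controls and at 1.22 and 1.56 times in Shh-Stk11 lungs. Sftpa1 was thus the higher of the pair in both Controls and the lower in both Shh-Stk11 lungs, a description for which no test was run.

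Sftpa1 and Sftpd belong to one collectin locus. In the GENCODE M21 order of protein-coding genes, Mat1a, Sftpa1, Mbl1 and Sftpd follow one another, with Sftpd on the opposite strand. Mat1a, a methionine adenosyltransferase, was chosen for mention after its values were seen. It was at 6.83 and 6.63 FPKM in Controls and at 12.3 and 12.6 FPKM in Shh-Stk11 lungs, and rose by 0.88 on the log2 scale (adjusted p = 0.0255). Its call was lost without each library in turn (adjusted p of 0.111 to 0.15). Mbl1, a mannose-binding lectin between the pair of surfactant genes, was at 2.57 and 1.41 FPKM in Controls and at 1.36 and 2.52 FPKM in Shh-Stk11 lungs, a log2 difference of -0.04 (adjusted p = 0.972). Among these 4 genes, only Mat1a passed the test. Dydc1, which comes before Mat1a in that order, was below the filter and was not tested. It was at 0.466 and 0.361 FPKM in Controls and at 0.123 and 0.0763 FPKM in Shh-Stk11 lungs.

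**Figure D2:**
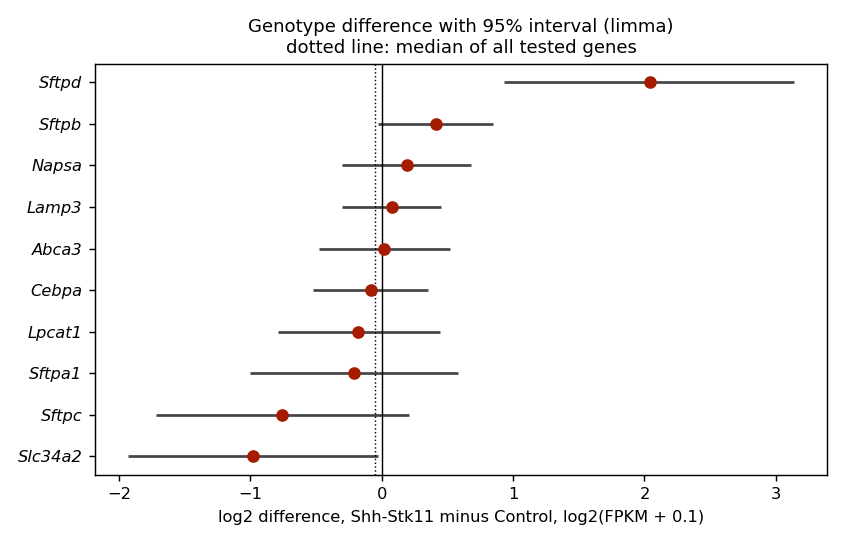
Log2 difference of each gene, Shh-Stk11 minus Control, with its 95% interval from limma and a dotted line at the median of all tested genes. The interval of Sftpd lies above 0 and that of Slc34a2 just below 0, and those of the other 8 include 0.

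The hydrophobic surfactant proteins SP-B and SP-C sit in the lipid film itself. Sftpb encodes SP-B, which is required for breathing at birth, and was at 522.9 and 426.4 FPKM in Controls and at 592.5 and 665.9 FPKM in Shh-Stk11 lungs. The groups did not overlap. The log2 difference was 0.41 (SE 0.184, interval -0.03 to 0.85, adjusted p = 0.365), and it ranged from 0.17 to 0.6 over the 16 other ways of processing.

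Sftpc encodes SP-C, the protein most specific to alveolar type 2 cells, and was at 17426 and 15784 FPKM in Controls and at 8005 and 12048 FPKM in Shh-Stk11 lungs. Both Shh-Stk11 values lay below both Control values. The mean went from 16605 ± 1161 to 10026 ± 2859 FPKM (SD, n = 2). The log2 difference was -0.76 (SE 0.402, interval -1.72 to 0.21, adjusted p = 0.447), and leaving out Shh-Stk11 1 gave -0.46, whereas leaving out Shh-Stk11 2 gave -1.05. With quantile normalization it shrank to -0.19. The interval covers a fold of 0.303 to 1.16, so that a large loss of the transcript and a small gain were both within the error. Sftpc was 33.3 and 37.0 times as high as Sftpb in Controls and 13.5 and 18.1 times as high in Shh-Stk11 lungs.

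Napsa, Lamp3 and Abca3 serve the lamellar body. Napsa encodes the aspartic protease napsin A, which takes part in cutting the SP-B precursor, and was at 201.2 and 152.8 FPKM in Controls and at 174.3 and 229.7 FPKM in Shh-Stk11 lungs. Lamp3 encodes a membrane glycoprotein of lamellar bodies, and was at 116.7 and 93.23 FPKM in Controls and at 104.2 and 116.1 FPKM in Shh-Stk11 lungs. Abca3 encodes the transporter that loads phospholipid into the lamellar body, and was at 76.53 and 51.9 FPKM in Controls and at 70.39 and 58.13 FPKM in Shh-Stk11 lungs. For all 3 genes the groups overlapped.

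The intervals of these 3 genes bound the differences that the libraries allow. The log2 difference was 0.19 for Napsa (interval -0.3 to 0.68, adjusted p = 0.711). It was 0.08 for Lamp3 (interval -0.3 to 0.45, adjusted p = 0.861), which as a fold is 0.811 to 1.37. It was 0.02 for Abca3 (interval -0.48 to 0.52, adjusted p = 0.972). The sign of all 3 differences turned when the libraries were scaled to the general epithelial genes, and none of them passed the test under any of the 16 other ways of processing.

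Slc34a2 and Lpcat1 handle the phosphate and the lipid of surfactant. Slc34a2 encodes the apical sodium-phosphate cotransporter of alveolar type 2 cells, and was at 352.5 and 149.3 FPKM in Controls and at 97.05 and 139.4 FPKM in Shh-Stk11 lungs. The groups did not overlap, but Control 2 lay close to Shh-Stk11 2 and far from Control 1. The log2 difference was -0.98 (SE 0.395, interval -1.93 to -0.03, unadjusted p = 0.0448, adjusted p = 0.31). It was -0.36 without Control 1, -0.72 without Shh-Stk11 1, -1.24 without Shh-Stk11 2 and -1.6 without Control 2, so that Control 1 decided most of its size.

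Lpcat1 encodes the acyltransferase that makes the saturated phosphatidylcholine of surfactant, and was at 200.6 and 137.3 FPKM in Controls and at 179.7 and 119.8 FPKM in Shh-Stk11 lungs. Each genotype held a high and a low library, and the groups overlapped. The log2 difference was -0.18 (SE 0.256, interval -0.79 to 0.44, adjusted p = 0.793). Cebpa encodes a transcription factor of type 2 cell maturation, and was at 48.15 and 34.01 FPKM in Controls and at 38.78 and 37.58 FPKM in Shh-Stk11 lungs. Both Shh-Stk11 values lay between the Control values, with a log2 difference of -0.08 (SE 0.18, interval -0.52 to 0.35, adjusted p = 0.868).

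The libraries of one genotype differed more in these genes than in most. All 10 genes were higher in Control 1 than in Control 2, which was the case for 46.6% of all tested genes. In Shh-Stk11 lungs 7 of the 10 were higher in library 2 than in library 1, against 53.5% of all tested genes, and Abca3, Lpcat1 and Cebpa were higher in library 1. The median absolute log2 difference between Control libraries was 0.52 over the 10 genes and 0.18 over all tested genes. Between Shh-Stk11 libraries it was 0.46 over the 10 genes and 0.16 over all tested genes. Slc34a2 was 2.36 times and Sftpd 2.27 times as high in Control 1 as in Control 2, at the 99.1 and the 99.0 percentile of the absolute differences of all tested genes. Sftpc differed least between Controls, at 1.1 times. The 10 genes were picked as surfactant and alveolar type 2 genes and cannot be counted as independent of each other. Which cells expressed them was not measured in these whole lungs.

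**Figure D3:**
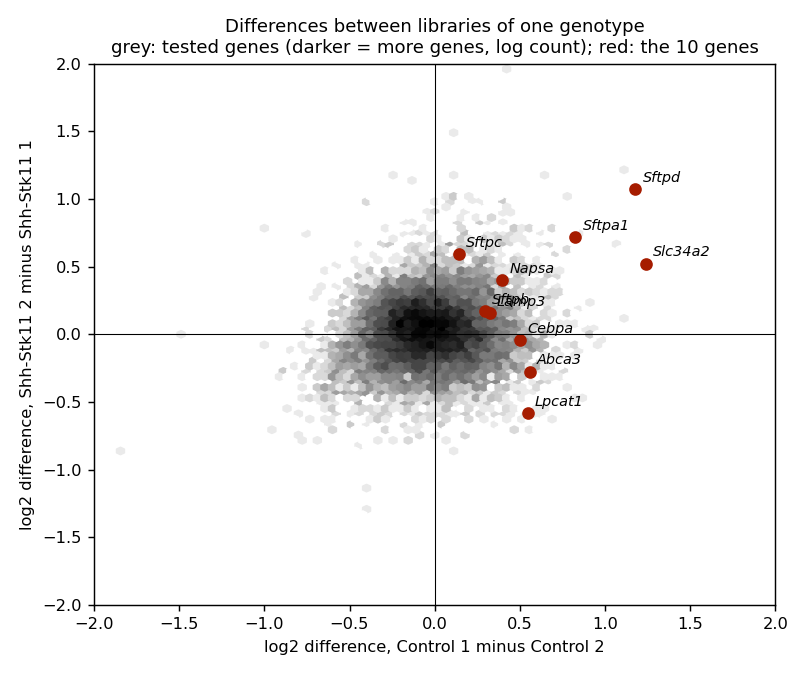
Log2 difference between the Control libraries (horizontal) against that between the Shh-Stk11 libraries (vertical), with the 10 genes in red over the density of tested genes in grey, and axes drawn from -2 to 2. All 10 red points lie to the right of 0, and Sftpd lies farthest up.

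The same replicate comparison was made over whole lists of other genes. Of 24 further alveolar type 2 genes, 23 were higher in Control 1 than in Control 2 and 18 were higher in Shh-Stk11 2 than in Shh-Stk11 1. Of 14 alveolar type 1 genes, 13 were higher in Control 1 and 14 in Shh-Stk11 2. Of 29 type 2 transcription regulators 19 were higher in Control 1 and 10 in Shh-Stk11 2, and of 9 distal tip progenitor genes 4 and 3 were. Of 6 surfactant-like proteins and further collectins 3 and 3 were. Of 37 surfactant lipid genes 27 and 26 were, and of 26 lamellar body genes 19 and 19. Of 20 general epithelial genes, 8 were higher in Control 1 and 15 in Shh-Stk11 2, and the sum of their FPKM was 1733 and 1779 in Controls and 1850 and 2172 in Shh-Stk11 lungs. Outside the epithelium, 8 of 10 endothelial genes and 8 of 11 mesenchymal genes were higher in Control 1, and 8 of 10 and 6 of 11 were higher in Shh-Stk11 2. Of 12 club cell genes 6 were higher in Control 1 and 7 in Shh-Stk11 2, and of 6 heart muscle genes 1 was higher in Control 1 and 0 in Shh-Stk11 2. Of 7 red blood cell genes 3 were higher in Control 1 and 4 in Shh-Stk11 2, and of 13 immune genes 6 and 7 were. The part of this ranking in the genotype differences was not tested.

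Levels relative to Sftpc were read within each library, where no scaling between libraries is needed. Of the 9 other genes, 7 had ratios to Sftpc in the Shh-Stk11 libraries that exceeded both Control ratios, and Slc34a2 and Lpcat1 did not. The same held for 84.9% of all other tested genes, so that the count says nothing particular about the surfactant genes, and the lower Sftpc level in both Shh-Stk11 libraries enters every ratio. Sftpb was at 3.0% and 2.7% of Sftpc in Controls and at 7.4% and 5.53% in Shh-Stk11 lungs. Sftpd was at 0.436% and 0.213% in Controls and at 1.79% and 2.5% in Shh-Stk11 lungs. The sum of the 9 genes without Sftpc was 1826 and 1209 FPKM in Controls and 1517 and 1861 FPKM in Shh-Stk11 lungs, and the groups overlapped.

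The wider type 2 program was followed in lists of related genes. Among the 24 further alveolar type 2 genes, 2 passed the test as higher and 2 as lower, beside 0.98% and 1.29% of all tested genes. The list median of the log2 differences was -0.1, with a range of -0.34 to 0.29 over the other ways of processing. Il33, an alarmin cytokine, was at 11.2 and 8.77 FPKM in Controls and at 27.2 and 35.4 FPKM in Shh-Stk11 lungs, and rose by 1.64 on the log2 scale (adjusted p = 0.0116). Bex2, an adaptor protein gene on the X chromosome, was at 83.8 and 44.1 FPKM in Controls and at 13.1 and 11.6 FPKM in Shh-Stk11 lungs, and fell by 2.29 on the log2 scale (adjusted p = 0.0162). Acoxl, which is related to the acyl-CoA oxidases, fell by 2.64 on the log2 scale, from 2.64 ± 1.48 to 0.306 ± 0.0327 FPKM (adjusted p = 0.0335). Its call was lost with a pseudocount of 1 (log2 difference -1.42, adjusted p = 0.061) and with quantile normalization (adjusted p = 0.0585). Ppp1r14c, an inhibitor of protein phosphatase 1, rose by 0.74 on the log2 scale (adjusted p = 0.0398). With 1 library left out, Bex2 stayed past the threshold each time (adjusted p up to 0.0465), but it did not with length and GC trends removed (adjusted p = 0.0813), with a replicate block (0.0608) or with no filter (0.319). Il33 lost its call without Control 1 or Control 2 (adjusted p up to 0.104), Acoxl lost it without Control 1, Shh-Stk11 1 or Shh-Stk11 2 (up to 0.109) and Ppp1r14c lost it without each library in turn (up to 0.171).

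The largest differences among the rest of that list were those of Retnla and Lyz1. Retnla, a secreted resistin-like protein, was at 310 and 132 FPKM in Controls and at 418 and 789 FPKM in Shh-Stk11 lungs, a log2 difference of 1.5 (adjusted p = 0.169). Lyz1, a lysozyme, was at 179 and 71.0 FPKM in Controls and at 30.1 and 56.1 FPKM in Shh-Stk11 lungs, a log2 difference of -1.45 (adjusted p = 0.191). As with Sftpd and Slc34a2, their replicates were far apart.

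Lists on the production and release of surfactant held 1 called gene. Of 26 tested genes of lamellar body formation, processing and secretion, 1 was higher and 0 were lower, beside 0.98% and 1.29% of all tested genes. The list median was -0.06 (range -0.31 to -0.01 over the other ways of processing). Syt7, a calcium sensor of lysosome and granule exocytosis, was at 2.88 and 2.58 FPKM in Controls and at 7.84 and 7.4 FPKM in Shh-Stk11 lungs, and rose by 1.45 on the log2 scale (SE 0.149, adjusted p = 0.00863). Its call was lost without Control 1 or Control 2 (adjusted p up to 0.104). Lyst, the lysosomal trafficking regulator, differed by 0.89 (adjusted p = 0.0712) and the small GTPase gene Rab27a by -0.66 (adjusted p = 0.135). Syt7 is expressed in many secretory cell types, and the cells behind its change were not measured. Of 37 genes of surfactant lipid synthesis and transfer, 0 passed the test, and the median was 0.03, with a range of -0.21 to 0.08 over the other ways of processing. The largest differences were those of Pcyt1b, an enzyme of phosphatidylcholine synthesis, at -0.95 (adjusted p = 0.254) and Cds1, which makes CDP-diacylglycerol, at 0.72 (adjusted p = 0.0846). These 37 differences spanned -0.95 to 0.72.

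Of 29 transcription regulators of type 2 cells, 0 passed the test (2.27% of all tested genes did), and the median was 0.06 (range -0.19 to 0.11 over the other ways of processing). Tfcp2l1, listed under its older symbol Tcfcp2l1, was at 5.01 and 2.64 FPKM in Controls and at 9.2 and 9.12 FPKM in Shh-Stk11 lungs, a log2 difference of 1.31 (adjusted p = 0.0781). Foxp2, a forkhead factor of distal epithelium, differed by 0.75 (adjusted p = 0.169). Of 6 tested surfactant-like proteins and further collectins, 0 passed, with a median of -0.1 (range -0.34 to 0.02), and Colec10 (0.82) and Colec11 (-0.44) differed most. Mbl2 was listed at 0 in every library.

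Lists of other lung cells were read in the same way, beside 0.98% of all tested genes called higher and 1.29% called lower. Of the 14 alveolar type 1 genes, 0 were higher and 2 were lower, with a median of -0.42 that was -0.19 without Shh-Stk11 1 and -0.22 without Control 1. Spock2, a proteoglycan, fell by 1.48 on the log2 scale (adjusted p = 0.0317), and Pdpn, a membrane mucoprotein of flat alveolar cells, fell by 1.18 (adjusted p = 0.0464). Both lost the call with eBayes without trend (adjusted p of 0.0584 and 0.0882). Pdpn lost it also with quantile normalization (adjusted p = 0.0761) and with median-ratio scaling (adjusted p = 0.0516). Spock2 lost its call without each library in turn and Pdpn lost it without Control 1, Control 2 or Shh-Stk11 1, with adjusted p up to 0.142 and 0.222. Aqp5, a water channel, differed the other way by 1.38 (adjusted p = 0.131), and Igfbp2, an insulin-like growth factor binding protein, by -0.99 (adjusted p = 0.123). Of 12 tested club cell genes, 0 were called higher and 4 lower (Upk3a, Scgb3a2, Nupr1 and Cckar), against 0.98% and 1.29% of all tested genes. The median of the list was -0.63. All 4 lost the call without Control 1 or without Control 2, with adjusted p up to 0.109 for Upk3a and 0.214 for Scgb3a2, and Scgb3a2 lost it also without Shh-Stk11 2, and Nupr1 and Cckar without each library in turn. Over 16 other ways of processing Upk3a kept its call in 12, Nupr1 in 7, Scgb3a2 in 6 and Cckar in 5. Scgb1a1, the secretoglobin that marks club cells, was at 221 and 102 FPKM in Controls and at 312 and 471 FPKM in Shh-Stk11 lungs, a log2 difference of 1.35 (adjusted p = 0.144). It was added after its values were seen. The paper reported Scgb1a1 as significantly increased in Shh-Stk11 lungs at E16.5, and by staining a larger share of SCGB1A1-positive airway cells. The summed level of the list was 1621 and 1454 FPKM in Controls and 1649 and 2409 FPKM in Shh-Stk11 lungs, higher in both where the median gene was lower. In the same list Cbr2, a carbonyl reductase of airway cells, was at 422 and 286 FPKM in Controls and at 738 and 1432 FPKM in Shh-Stk11 lungs (adjusted p = 0.0832), and Pon1, a paraoxonase, was at 4.74 and 1.6 FPKM in Controls and at 0.719 and 1.27 FPKM in Shh-Stk11 lungs (adjusted p = 0.245). The general epithelial genes had a median of 0.18, with 19 of 20 higher and 0 called. Over the 16 other ways of processing this median ranged from -0.06 to 0.34. The -0.06 came from scaling to these same genes, which sets their median near 0 in advance. The lowest median in the other settings was 0.11, without Shh-Stk11 2. Of 9 distal tip progenitor genes, 0 passed, with a median of -0.11 whose sign turned without Shh-Stk11 2 (0.07), without Control 1 (0.01) and with length and GC trends removed (0.05).

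**Figure D4:**
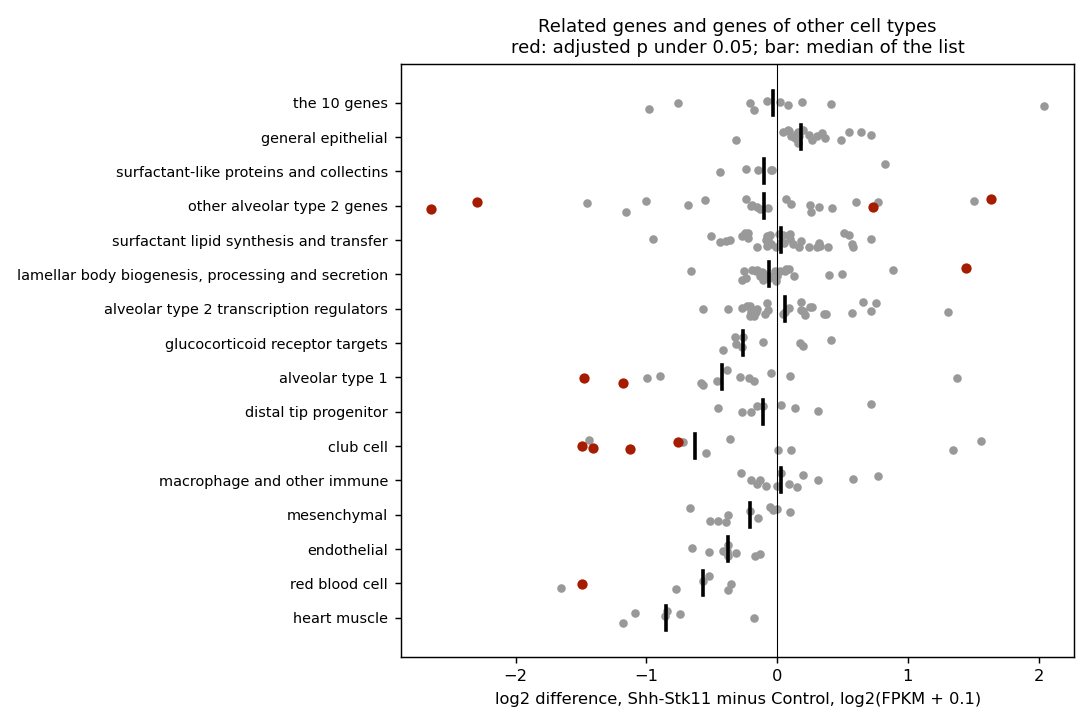
Log2 difference of each tested gene, Shh-Stk11 minus Control, in the 10 genes and the related lists, with a bar at the median of each list and red points for genes at an adjusted p under 0.05. The 10 genes hold no red point, and the red points stand in the type 2, lamellar body, type 1, club cell and red blood cell lists.

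Among gene lists of cells outside the epithelium, 1 gene passed the test, whereas 2.27% of all tested genes did. The medians are given beside -0.05 over all tested genes, of which 41.7% were higher in Shh-Stk11 lungs. Of 11 mesenchymal genes 10 were lower (median -0.21), with a summed level of 2674 and 2498 FPKM in Controls and 2007 and 2221 FPKM in Shh-Stk11 lungs. All 10 endothelial genes were lower (median -0.38), and their sum was 1065 and 975 FPKM in Controls and 741 and 798 FPKM in Shh-Stk11 lungs. All 7 tested red blood cell genes were lower (median -0.57), of which Hba-x passed the test, and did not without Control 1 or Control 2 (adjusted p up to 0.146). Over 6 heart muscle genes the median was -0.85 with overlapping groups, and it was -0.18 without Shh-Stk11 2, -0.38 without Control 2, -1.37 without Control 1 and -1.52 without Shh-Stk11 1, and their sum was 129 and 272 FPKM in Controls and 161 and 65.4 FPKM in Shh-Stk11 lungs. Without Shh-Stk11 2 the mesenchymal median was -0.1, and without Shh-Stk11 1 it was -0.32. Of 13 immune genes 0 passed, with a median of 0.03 that ranged from -0.21 to 0.28 over the 16 other ways of processing. Retnla and Lyz1 are not particular to type 2 cells, and of the 9 adipocyte and liver genes only Fabp4 and Alb reached the filter. What part these other cells had in the values of the surfactant genes was not tested.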

How the data were processed

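Total RNA of E16.5 lungs was sequenced as single-end reads of 50 bases. The authors deposited 1 table of FPKM values, scaled to transcript length and library size, with 1 column per library. The submitters' processing notes name TopHat2 2.0.13 and Cufflinks 2.2.1 and the builds GRCm38 and mm9, without saying which was used. The annotation and the library scaling are not given in the sources used here. FPKM values are not counts, so no count model was fitted. Read depth was estimated from the steps between low values of 254 genes. Of the 158 to 182 that came to fewer than 10 reads in a library, 54.4% to 59.9% fell within 0.05 reads of a whole number.

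R 4.3.3 and limma 3.58.1 were applied to log2(FPKM + 0.1) of genes whose mean reached 0.5 FPKM, with genotype as the only term and eBayes with a trend (4.48 prior and 2 residual degrees of freedom). The log2 scale with this pseudocount understates changes of low genes. Tests were two-sided, with Benjamini-Hochberg adjustment over all 13770 genes and a threshold of 0.05. The fit was tested on simulated data. With 2 libraries per genotype, the smallest p of an exact permutation test is 0.333, so each p rests on variance shared across genes and measures only the spread between these libraries. Values after ± are SDs over 2 libraries.

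The 10 genes and all lists were chosen with earlier results of these data known. Named genes were all 10 members and, per list, every called gene (at most 6) and the 2 largest differences among the rest. The latter were left unnamed for the general epithelial, distal tip, mesenchymal, endothelial, red blood cell, immune and heart muscle lists. Sftpa1 was left out of the list of further type 2 genes. Of the symbols, 20242 were found in GENCODE M21 as written, 1904 by way of RefSeq synonyms and 410 not at all. Alternatives were other pseudocounts (1 and 0.01), other filters (0.1, 5 and none), quantile, median-ratio and epithelial scaling, eBayes without trend or robust, a replicate block, removal of length and GC trends, and leaving out each library.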

Additional observations from a re-analysis of the deposited data

How the results depend on the processing

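Under all 16 alternatives 0 of the 10 genes passed the threshold, and Sftpd, Sftpb, Sftpc and Slc34a2 kept their direction. The counts over all tested genes, 135 higher and 178 lower, moved more. They were 0 and 1 without a filter, 61 and 464 with scaling by general epithelial genes, which shifted the median of all genes from -0.05 to -0.294, 303 and 284 with robust eBayes, and 86 and 102 with length and GC trends removed. With a mean of at least 5 FPKM 90 were lower. With the replicate number as a block they were 6 and 7. The numbers do not pair the libraries by any label, and the deviations of same-numbered libraries correlated at -0.114. A crossed block, chosen after seeing the data, gave 360 and 315, with 1 of the 10 genes higher, Sftpd. Leaving out 1 library gave 15 to 64 higher and 23 to 112 lower among the moved counts, with 127 lower without Shh-Stk11 replicate 2. Where an arm was left with 1 library, it was assumed to vary like the other group.

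Small differences changed sign. Epithelial scaling gave -0.22 for Abca3, -0.17 for Lamp3 and -0.055 for Napsa. Removal of length and GC trends gave -0.017 for Abca3, -0.15 for Lamp3 and 0.099 for Cebpa. With 1 library left out, the log2 difference ranged from -0.62 to 0.2 for Sftpa1, from -0.26 to 0.3 for Abca3, from -0.086 to 0.24 for Lamp3, from -0.009 to 0.39 for Napsa, from -0.47 to 0.11 for Lpcat1 and from -0.33 to 0.17 for Cebpa. The cause of these changes was not tested. The estimated counting SD was at most 2.42% for each of the 10 genes, and 2 libraries per genotype limit the precision of every spread.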

Other observations

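Glucocorticoids hasten surfactant maturation, and 9 genes known as targets of their receptor were read beside the surfactant genes. None of the 9 passed the test (limma, adjusted p under 0.05), 2 had an unadjusted p under 0.05 (15.2% of all tested genes did), and the median log2 difference was -0.26, which became -0.08 without Control 1. Zbtb16, a zinc finger repressor, was at 13.5 and 9.98 FPKM in Controls and at 8.68 and 8.72 FPKM in Shh-Stk11 lungs (log2 difference -0.41, adjusted p = 0.326). Errfi1, a feedback inhibitor of EGF receptors, was at 59.2 and 39.5 FPKM in Controls and at 60.9 and 68.4 FPKM in Shh-Stk11 lungs (log2 difference 0.42, adjusted p = 0.412). Of these 9 genes, 8 were higher in Control 1 than in Control 2 and 8 were higher in Shh-Stk11 2 than in Shh-Stk11 1, against 46.6% and 53.5% of all tested genes.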
